A study of Mesocricetus auratus with 38 samples.

Results

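Liver transcripts of the nuclear-encoded subunits of the respiratory chain and of ATP synthase were followed in Golden Syrian hamsters fed a high-fat diet (HFD), with and without combined metabolic activators (CMA). Members were chosen by name from the gene symbols of the deposited tables: Nduf followed by a, b, c, s or v without the assembly factors (complex I), Sdha to Sdhd (complex II), Cyc1 and the symbols that begin with Uqcr (complex III), Cox4 to Cox8 (complex IV) and Atp5 (complex V, ATP synthase). The rule found 65 of the 14631 symbols, with 29 in complex I, 4 in complex II, 7 in complex III, 16 in complex IV and 9 in complex V. Ndufa4 was placed in complex IV, where its protein is found. Several other subunits (Ndufv1, Ndufs1, Cox5b, Uqcrh and Atp5b among them) were not analysed here.

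Liver RNA came from male hamsters in 4 groups. HFD hamsters (10 libraries) were fed for 12 weeks a diet in which fat supplied 23% of the calories and to which cholesterol had been added at 1 g/kg. Dose I hamsters (9 libraries) and Dose II hamsters (10 libraries) ate the same HFD and received CMA during the last 4 weeks, as 200 mg/kg of each of L-carnitine, N-acetylcysteine and nicotinamide riboside with 400 mg/kg betaine in Dose I, and as 400 mg/kg of each with 800 mg/kg betaine in Dose II. Control hamsters (9 libraries) were fed normal chow, in which fat supplied 11% of the calories, for the same time. The labels give an age of 22 weeks in every group, no group received CMA on the normal diet, and each library was taken as 1 animal. Libraries are named here by group (H for HFD, DI, DII and C for control) and label number.

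Complexes I and II pass electrons from NADH and succinate to coenzyme Q, complex III passes them on to cytochrome c, and complex IV passes them to oxygen. Complexes I, III and IV pump protons across the inner mitochondrial membrane, and ATP synthase uses the gradient to make ATP. Most subunits are encoded in the nucleus and imported, while a small set of hydrophobic core subunits is encoded in mitochondrial DNA, and complex II is wholly nuclear. In hepatocytes, which are rich in mitochondria, the chain reoxidises the NADH and FADH2 made by fatty acid oxidation.

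Total estimated counts ranged between libraries, at 4.08e+06 to 1.04e+07. Control library C105 stood apart from the other 8 control libraries, and the study's methods leave out a control library without naming it. On the first principal component of the 500 most variable genes, C105 had a score of 19.0, whereas the other controls lay between -23.1 and -13.0 and the libraries of the other groups between -8.69 and 12.4. Its members were the highest of any control in 55 of the 59 tested (93.2%), against 31.9% of all tested genes, and in 54 they were above every HFD library as well. The median member was higher in C105 than in the mean of the other controls by 1.104 on the log2 scale (range -0.27 to 2.26), while the median of all genes was -0.07. C105 also held the most counts of 13 cytosolic ribosomal protein genes (5777 summed CPM, against 2349 to 2941 in the other controls), the fewest of 29 long, widely expressed transcripts (1209 summed CPM, against 2242 to 2788) and the lowest share of counts from the 13 mitochondrial-DNA genes (6.31%, against 7.55 to 9.61%). Values below are over 37 libraries, without C105, unless 38 are named. Because C105 was high in the members themselves, leaving it out favours a rise of the members in HFD against control. Most counts for complexes and gene lists are given both ways, and of the single members Cox5a, Ndufb6 and Ndufa11 alone kept their call over 38.

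**Figure D1:**
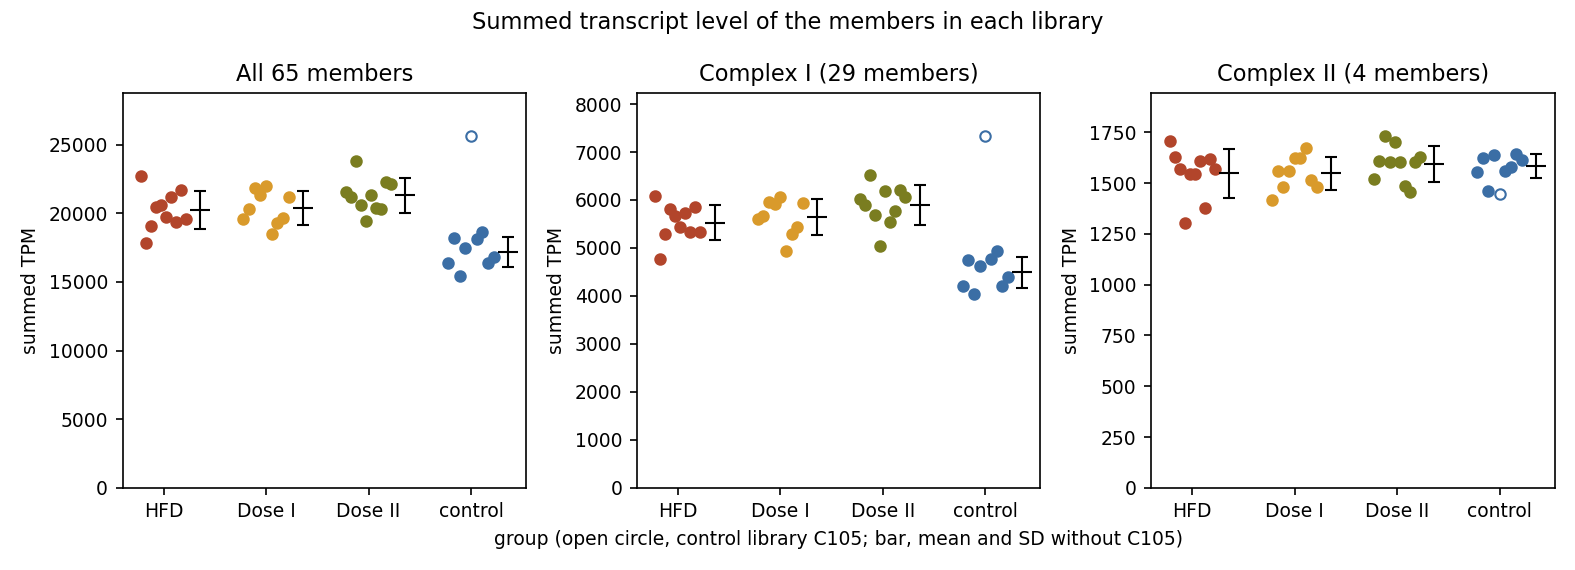
Summed TPM of all members, of complex I and of complex II in each library, by group. Points are libraries, the open circle is C105, and bars show the mean and SD without C105: the sum of all members lay between 17861 and 22742 TPM in HFD libraries, against 15460 to 18600 TPM in the 8 control libraries and 25644 TPM in C105, and complex II overlapped between all groups.

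Per length and depth (TPM), the members were abundant liver transcripts. Among the 59 members high enough to be tested, mean TPM over all libraries ran from 54.8 for Ndufs4, an accessory subunit of complex I, to 1736 for Atp5h, which encodes subunit d of the ATP synthase stalk. Behind Atp5h came Atp5j2 (865 TPM), Ndufa4 (814 TPM), Cox7b (741 TPM), Sdhc (731 TPM) and Uqcrq (684 TPM). The most abundant member of complex I was Ndufb9, at 432 TPM. These ranks depend on the transcript lengths behind TPM. In mean estimated counts per library, Atp5f1a (5203) was above Atp5h (1582), and Ndufs4 (512) was above Ndufa11 (250).

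The isoforms of complex IV that other tissues use were at or near 0 in liver. Cox4i1 averaged 442 TPM and its lung isoform Cox4i2 0.486 TPM. Cox6a1 and Cox7a2, the widely expressed forms, averaged 376 and 486 TPM, whereas their heart and skeletal muscle forms Cox6a2 and Cox7a1 averaged 1.28 and 0.268 TPM. Cox8a averaged 293 TPM and the muscle form Cox8b 0.437 TPM. Cox8c had 0 counts in all 38 libraries, which allows at most 0.0134 CPM at this depth. With Cox6b2 (0.0319 TPM), these were the 6 members too low to be tested, and the other 59 had at least 53 counts in every library. 

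Summed over all members, the level was 20238 ± 1410 TPM in HFD livers (SD, n = 10), 20397 ± 1249 TPM at Dose I (n = 9) and 21295 ± 1251 TPM at Dose II (n = 10), against 17170 ± 1093 TPM in control livers without C105 (n = 8) and 18112 ± 3004 TPM with it (n = 9). As a share of all counts, the members made up 1.09 ± 0.08% in HFD livers, 1.104 ± 0.075% at Dose I, 1.16 ± 0.09% at Dose II, 0.882 ± 0.062% in controls without C105 and 1.37% in C105 itself. Both measures overlapped between HFD and control libraries, in that the lowest HFD library (H111) was below the highest of the 8 controls (C107). The sum of complex II was 1547 ± 120 TPM in HFD livers, 1547 ± 82.5 TPM at Dose I, 1594 ± 87.2 TPM at Dose II and 1584 ± 60.1 TPM in the 8 controls, and the ranges of all groups overlapped. In whole liver, fewer cells of a type and less RNA per cell cannot be told apart.

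HFD was compared with control to ask what the diet changed in these transcripts. Over 37 libraries, 48 of the 59 tested members rose in HFD livers, 1 fell and 10 were not called, at an adjusted p under 0.1 (edgeR, quasi-likelihood test, Benjamini-Hochberg over all 9099 tested genes). Of all those genes, 18.1% rose and 18.1% fell. The median log2 fold change was 0.30 over the members and 0.01 over all genes, and 55 of the 59 members were above 0. Members varied together between libraries, as given below, so 55 is not a count of independent genes. With C105 kept, 3 members rose and none fell (Cox5a, Ndufb6 and Ndufa11), against 6.63% of all genes that rose and 8.94% that fell, and the median of the members was 0.11. Leaving out any one other control in place of C105 gave 1 to 3 calls, so that, among the controls, the count turned on C105. The length adjustment given below also moved it, to 31 calls over 37 libraries.

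**Figure D2:**
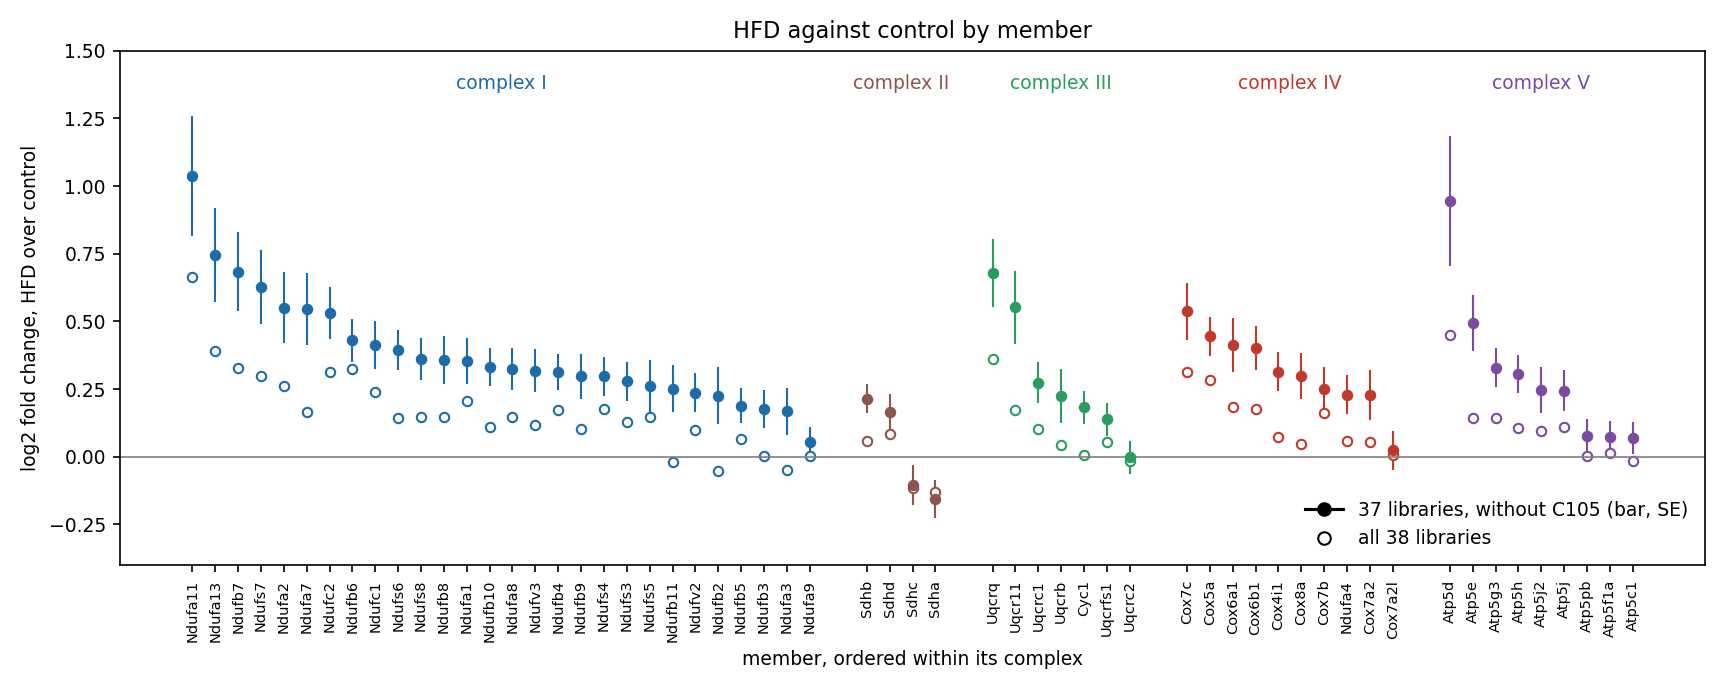
Log2 fold change of HFD over control for 58 of the 59 tested members, grouped by complex and ordered by size. Filled points with SE bars are from 37 libraries and open points from all 38: complexes I, III, IV and V lie mostly above 0 and complex II on both sides, and the open points lie lower for nearly every member, with only 3 of them called.

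Complex I held the most members that rose, 25 of 29, with a median log2 fold change of 0.32 over 37 libraries and of 0.15 over 38, where 2 were called. Accessory subunits of the membrane arm rose in 16 of 18 cases, those of the matrix arm in 5 of 6, and core subunits in 4 of 5. The largest change was in Ndufa11, an accessory subunit of the membrane arm. Its normalised read count had a lowest value of 16.1, a median of 40.2 and a highest value of 57.1 CPM in HFD livers, against 11.2, 18.2 and 35.2 CPM in the 8 controls and 74.4 CPM in C105. The highest control and the lowest HFD library overlapped, but 8 of 10 HFD libraries were above every one of the 8 controls. On the log2 scale Ndufa11 rose by 1.04 ± 0.22 (SE) with an adjusted p = 0.00076, and by 0.66 over 38 libraries (adjusted p = 0.097).

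Ndufb6, another accessory subunit of the membrane arm, had a lowest value of 58.98, a median of 69.3 and a highest value of 83.2 CPM in HFD livers, against 44.2, 48.4 and 63.6 CPM in the 8 controls. Only the lowest HFD library fell within the control range, and C105 had 86.4 CPM. The fold change was 0.43 ± 0.08 (adjusted p = 0.00017) and remained past the threshold with C105, at 0.32 (adjusted p = 0.027). Ndufc2, which is required for the assembly of the membrane arm, rose by 0.53 ± 0.10 (adjusted p = 0.00012), with HFD libraries at 57.3 to 92.0 CPM and the 8 controls at 40.5 to 64.9 CPM. Ndufs6, a zinc-binding subunit of the matrix arm, rose by 0.39 ± 0.07 (adjusted p = 0.00019).

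Other members of complex I that rose were the membrane-arm subunits Ndufb7 (log2 fold change 0.68 ± 0.15), Ndufb10 (0.33 ± 0.07) and Ndufa13 (0.74 ± 0.17, also known as GRIM-19). The core subunits Ndufs7 (0.63 ± 0.14) and Ndufs8 (0.36 ± 0.08), which hold iron-sulphur clusters on the way to the quinone site, rose as well. Among those not called were Ndufa3, Ndufa9 and Ndufb2, with fold changes of 0.06 to 0.23.

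Complex II, succinate dehydrogenase, was mixed. Sdhb, its iron-sulphur subunit, had a lowest value of 307, a median of 330 and a highest value of 375 CPM in HFD livers, against 262, 283 and 306 CPM in the 8 controls, so that every HFD library was above each of them. The fold change was 0.22 ± 0.05 (adjusted p = 0.0030). C105 had 565 CPM of Sdhb, and over 38 libraries the fold change was 0.06 (adjusted p = 0.74).

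Sdha, the flavoprotein subunit that oxidises succinate, was the only member that fell. It had a lowest value of 518, a median of 688 and a highest value of 774 CPM in HFD livers, against 640, 719 and 793 CPM in the 8 controls. The groups overlapped and the fold change of -0.16 ± 0.07 was just past the threshold (adjusted p = 0.099). It was not called over 38 libraries (-0.13, adjusted p = 0.26). C105 was the lowest control for Sdha, at 605 CPM, in contrast to its place in Sdhb. Of the membrane anchors, Sdhd rose (0.17 ± 0.07, adjusted p = 0.061) and Sdhc was not called (-0.10 ± 0.07, adjusted p = 0.30).

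Complex III rose in 6 of 7 members, with a median of 0.22, and in none of 7 with C105, where the median was 0.06 and no member had an unadjusted p under 0.05. The small subunits Uqcrq and Uqcr11 had the largest fold changes. Uqcrq, which helps hold cytochrome b, had a lowest value of 169, a median of 201 and a highest value of 298 CPM in HFD livers, against 93.9, 131.9 and 159 CPM in the 8 controls, and 408 CPM in C105. Its fold change was 0.68 ± 0.13 (adjusted p = 0.00017) over 37 libraries and 0.36 (adjusted p = 0.21) over 38. Uqcr11 rose by 0.55 ± 0.13 and Uqcrb by 0.22 ± 0.10. The electron carriers Cyc1 (cytochrome c1) and Uqcrfs1 (the Rieske iron-sulphur protein) rose by 0.18 ± 0.06 and 0.14 ± 0.06, although neither was called with C105 or with the length adjustment given below. Of the core proteins, Uqcrc1 rose by 0.27 ± 0.08, and Uqcrc2 had medians of 336 CPM in HFD livers and 340 CPM in the 8 controls with a fold change of 0.00 ± 0.06.

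Complex IV rose in 9 of the 10 members tested, all but Cox7a2l, with a median of 0.31 (0.12 over 38 libraries, with 1 called). Cox5a, a subunit on the matrix side, had the smallest adjusted p of all members. It had a lowest value of 85.2, a median of 104.4 and a highest value of 141 CPM in HFD livers, against 63.7, 78.1 and 84.6 CPM in the 8 controls, without overlap. Its fold change was 0.44 ± 0.07 (adjusted p = 3.8e-05), and 0.29 (adjusted p = 0.079) with C105, which had 156 CPM.

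Cox6b1, which faces the intermembrane space, was likewise higher in every HFD library (167 to 257 CPM) than in the 8 controls (120 to 165 CPM), with a fold change of 0.40 ± 0.08 (adjusted p = 0.00044). Cox7c had the largest change of complex IV, at 0.54 ± 0.11 (adjusted p = 0.00035), with medians of 99.1 CPM in HFD livers and 67.2 CPM in the 8 controls. Cox4i1 rose by 0.31 ± 0.07, Cox6a1 by 0.41 ± 0.10, Cox8a by 0.30 ± 0.08, Cox7a2 by 0.23 ± 0.09 and Ndufa4 by 0.23 ± 0.07. Cox7a2l, which takes part in joining complexes III and IV into supercomplexes, was not called (0.02 ± 0.07), with medians of 58.3 CPM in HFD livers and 56.4 CPM in the 8 controls.

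ATP synthase rose in 6 of 9 members, with a median of 0.25 (0.10 over 38 libraries, with none called and none at an unadjusted p under 0.05). Atp5d, the delta subunit of the rotor stalk of F1, had a lowest value of 34.8, a median of 67.3 and a highest value of 105.96 CPM in HFD livers, against 17.8, 31.4 and 59.5 CPM in the 8 controls. The ranges overlapped widely, with 5 of 10 HFD libraries above all 8 controls, and the fold change was 0.95 ± 0.24 (adjusted p = 0.0034), against 0.45 over 38 libraries (adjusted p = 0.35). Atp5e, the epsilon subunit beside it, rose by 0.49 ± 0.10 (adjusted p = 0.00069), with medians of 141 CPM in HFD livers and 104.5 CPM in the 8 controls. Atp5h, the most abundant member in TPM, rose by 0.31 ± 0.07. Atp5c1 (gamma), Atp5f1a (alpha, which with beta forms the head) and Atp5pb (subunit b of the outer stalk) were not called, at 0.07 ± 0.06, 0.07 ± 0.06 and 0.08 ± 0.06.

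**Figure D3:**
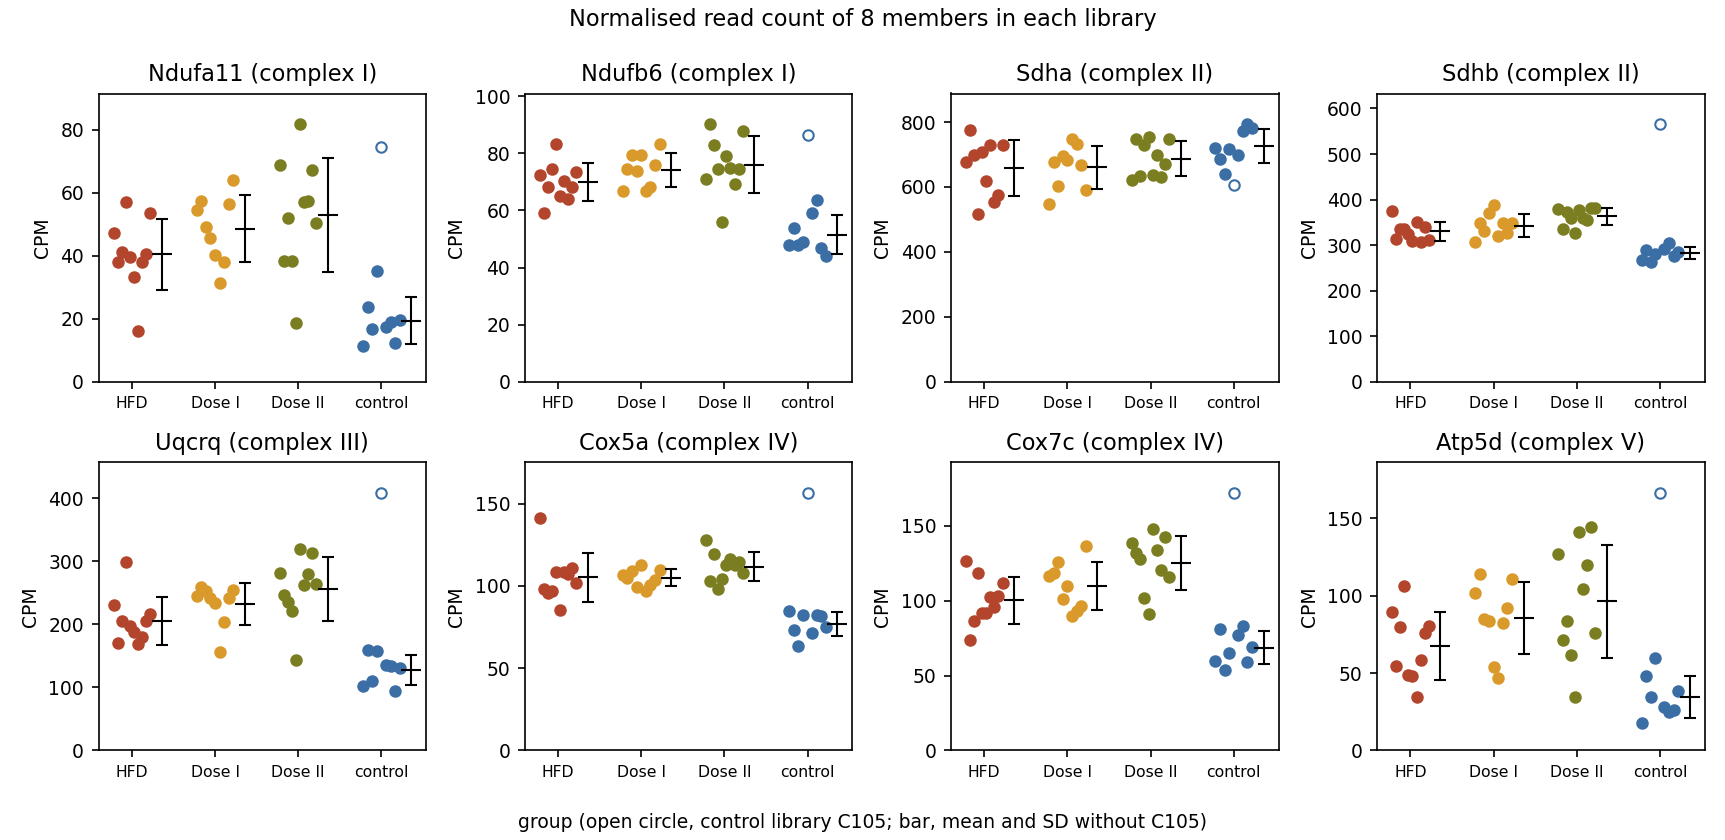
Normalised read counts (CPM) of 8 members in every library, by group. Points are libraries, the open circle is C105, and bars show the mean and SD without C105: Cox5a, Sdhb and Uqcrq of HFD lie above all 8 controls without overlap, Ndufa11 and Atp5d spread widely within each group, and Sdha is the one panel in which C105 is the lowest control.

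Each of the 10 HFD libraries was above all 8 controls in 4 members (Cox5a, Cox6b1, Sdhb and Uqcrq). By the same measure 1.02% of all tested genes did not overlap in that direction. No member had every HFD library below the 8 controls. With C105 counted as a control, no member had every HFD library higher, and 0.187% of all genes did.

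The members are short transcripts, and length went with the difference between HFD and control across all genes. Relative length, taken as the ratio of counts to TPM, had a median of 0.221 over the members and 1.01 over all tested genes, and 58 of the 59 members were shorter than that second median. Among the fifth of genes with the shortest transcripts, which held 51 of the members, 34.6% of all genes rose in HFD livers with a median log2 fold change of 0.16, against 46 of the 51 members with a median of 0.31. Among the fifth with the longest transcripts, 6.92% of genes rose and the median was -0.13. Spearman's rho between length and fold change was -0.26 across all 9099 genes and -0.35 across the 59 members, given as a description since genes are not independent replicates.

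**Figure D4:**
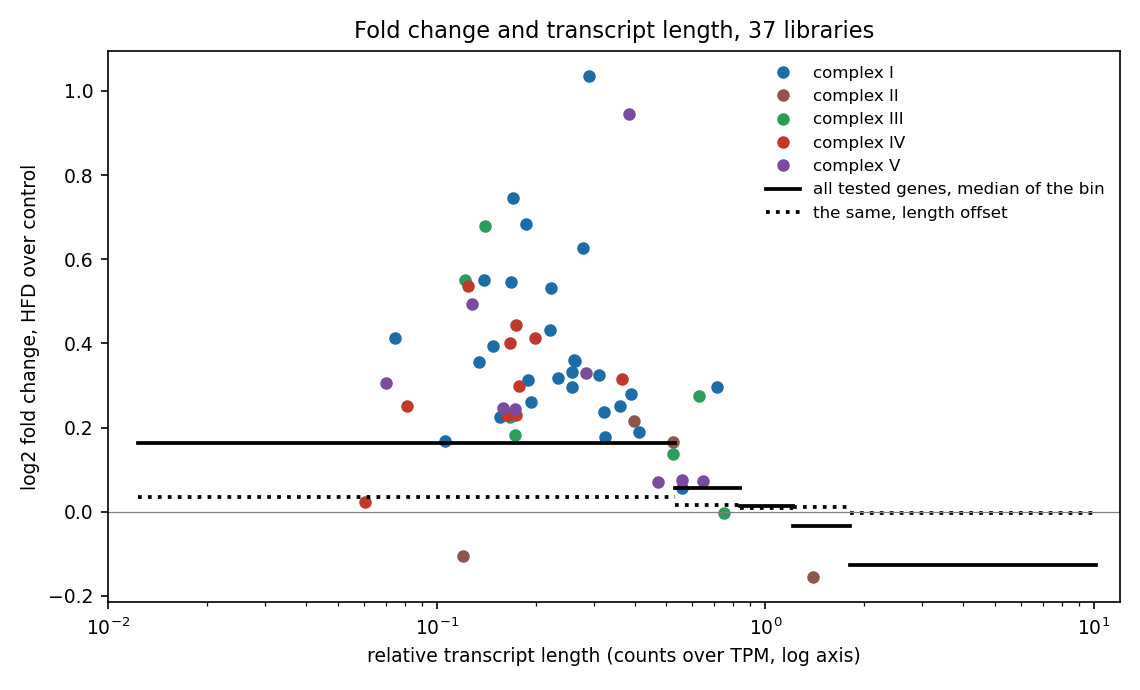
Log2 fold change of HFD over control against relative transcript length (log axis), over 37 libraries. Points are 58 of the 59 tested members, coloured by complex, solid lines are medians of all tested genes in 5 bins of length, and dotted lines are the same medians with the length trend of each library removed: most members lie in the shortest bin and above its median of 0.16, while Sdhc and Cox7a2l lie farthest below it.

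When the trend of counts with length was removed library by library, 29 members rose and 2 fell, against 15.6% of all genes that rose and 16% that fell, and the members' median was 0.13 (0.01 over all genes). Complex I then had 17 of 29 members that rose, complex III 3 of 7, complex IV 5 of 10, complex V 3 of 9 and complex II 1 of 4. The members that fell were Sdhc (-0.30, adjusted p = 0.0034) and Cox7a2l (-0.19, adjusted p = 0.070), both short transcripts that had not risen without the adjustment. With C105 kept and the same adjustment, 6 rose and 1 fell, against 6.97% and 9.14% of all genes. The trend itself differed between libraries: Spearman's rho of length with a library's deviation from the mean of the groups was -0.224 to 0.136 in HFD, -0.286 to 0.098 at Dose I, -0.297 to 0.080 at Dose II, 0.099 to 0.334 in the 8 controls and -0.357 in C105. The origin of this trend was not tested.

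Subunits encoded in mitochondrial DNA were counted beside the nuclear ones. Over 37 libraries, 10 of the 13 rose in HFD livers and none fell, with a median of 0.22, and over 38 libraries 7 rose with a median of 0.25. Their summed level in C105 was 78309 CPM, below each of the other controls (78872 to 101886 CPM). COX2, the subunit of complex IV that receives electrons from cytochrome c, rose by 0.32 ± 0.06 (adjusted p = 0.000299), and by 0.25 with C105 (adjusted p = 0.025). ATP6, the proton channel of ATP synthase, rose by 0.31 ± 0.07 (adjusted p = 0.0015), and by 0.31 with C105 (adjusted p = 0.0036). ND4 and ND3 of complex I rose by 0.26 ± 0.08 and 0.29 ± 0.09. ATP6 overlaps ATP8, and ND4 overlaps ND4L, so reads of each pair may be shared. With the length trend removed, 2 of the 13 rose and the median was 0.10.

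Over all tested genes, 18.1% rose and 18.1% fell, against 6.63% and 8.94% with C105 and 15.6% and 16% with the length trend removed. Of 14 complex I assembly factors, 4 rose and none fell (median 0.14), and none was called with C105. Among them were Ndufaf3 (0.39 ± 0.11) and Ndufaf8 (0.62 ± 0.25). Of 31 factors of complexes II to V, 8 rose and 2 fell (median 0.09), whereas 1 rose with C105 (median -0.01) and 5 rose and 5 fell with the length trend removed (median -0.01). Sdhaf1, which helps insert the iron-sulphur clusters of Sdhb, rose by 1.71 ± 0.35 (adjusted p = 0.00050), and by 1.43 with C105 (adjusted p = 0.0077). Higd2a rose by 0.51 ± 0.10, Cox17, which carries copper to complex IV, by 0.72 ± 0.17, and Coa3 by 0.37 ± 0.09, whereas Coa5 fell by 0.57 on the log2 scale.

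Of 13 genes of cytochrome c and coenzyme Q synthesis, 3 rose and 1 fell (median -0.01), and 1 rose and 1 fell with C105. Coq7 (0.51 ± 0.13), Coq9 (0.21 ± 0.08) and Coq10a (0.40 ± 0.16) rose, and Coq2, the enzyme that joins the ring and the tail of coenzyme Q, fell by 0.58 on the log2 scale (adjusted p = 0.0066). Among 11 transcriptional regulators, 2 rose and 2 fell (median 0.02), and 1 rose and 1 fell with C105. The regulators' counts were close to the shares over all genes, 18.1% that rose and 18.1% that fell (6.63% and 8.94% with C105). Esrra, a nuclear receptor that acts on genes of oxidative metabolism, rose by 0.62 ± 0.16 (adjusted p = 0.0038) and Polrmt, the mitochondrial RNA polymerase, by 0.35 ± 0.12. Ppara, the nuclear receptor for fatty acid oxidation, fell by 1.05 on the log2 scale (adjusted p = 0.00070), and Tfb2m fell by 0.24. Ppargc1a, a coactivator known for mitochondrial biogenesis, was not called (0.16 ± 0.24).

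Marker lists of other cell types and RNA classes were read beside the members. Of 37 cytosolic ribosomal protein genes listed, 13 were among the deposited symbols. All 13, also short transcripts, rose in HFD livers (median 0.43), and 2 with C105. Of 29 long transcripts, 19 fell and none rose (7 fell with C105). Of 12 Kupffer cell and macrophage markers, 7 rose and none fell (3 rose with C105), with summed levels of 315 to 523 CPM in HFD livers, against 224 to 317 CPM in the 8 controls and 547 CPM in C105, and 0 of the 12 was at 0 in any group. Of 8 hepatocyte markers, 1 rose and 4 fell (none and 2 with C105), with summed levels of 132769 to 200709 CPM in HFD livers, against 205593 to 241378 CPM in the 8 controls and 286446 CPM in C105. Of the adipocyte markers, Adipoq and Lep had 0 counts in every group, and Cidec, which fat-laden hepatocytes also express, was not called (-0.21 ± 0.25), at 44.4 to 133.7 CPM in HFD livers, against 51.01 to 135.9 CPM in the 8 controls. Of 7 endothelial markers 1 rose, and of 7 stellate and fibroblast markers 1 fell (none and 1 with C105). Of 4 cholangiocyte markers, all above 0 (median 0.59), 1 rose (none with C105). Their summed levels were 4.78 to 13.4 CPM in HFD livers and 3.32 to 7.70 CPM in the 8 controls. Of 3 muscle markers tested, 1 rose, also with C105. The 1 red cell marker tested was not called, and no T and B cell marker was tested. Over all genes 18.1% rose and 18.1% fell. Albumin alone took 11.3 to 15.8% of counts in HFD livers and 16.9 to 20.02% in the 8 controls. The part of these shifts in the rise of the members was not tested.

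CMA was compared with HFD alone to ask what each dose added, with both doses set against the same 10 HFD libraries. At Dose I, none of the 59 members was called by edgeR over 37 libraries, where 0.154% of all genes rose and 0.033% fell. DESeq2 and limma-trend on log2 TPM also called 0, and 4 members had an unadjusted p under 0.05 in edgeR. The median log2 fold change was 0.07 over the members and 0.00 over all genes. Ndufa13 (0.37 ± 0.16, adjusted p = 0.48) and Uqcr11 (0.27 ± 0.13, adjusted p = 0.51) had the smallest p.

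At Dose II, 5 members rose and none fell, against 3.37% of all genes that rose and 2.25% that fell. The median was 0.13 over the members and 0.00 over all genes, 58 of 59 members were above 0, and 24 had an unadjusted p under 0.05. Members varied together between libraries, as given below, so neither is a count of independent genes. In the fifth of genes with the shortest transcripts, which held 51 of the members, 5% of all genes rose, with a median of 0.06. By complex, 2 of 29 rose in complex I, 1 of 4 in complex II, 1 of 7 in complex III, 1 of 10 in complex IV and none of 9 in complex V. None of the 5 was called over all 38 libraries, with the length trend removed, by limma-trend on log2 TPM or at a threshold of 0.05, while DESeq2 called 8. Of all genes, 1.63% rose over 38 libraries, 2.8% with the length trend removed and 4.15% by DESeq2.

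Cox7c had a lowest value of 91.0, a median of 130 and a highest value of 148 CPM at Dose II, against 73.7, 99.1 and 126.4 CPM in HFD livers, with overlap. Its fold change was 0.34 ± 0.10 (adjusted p = 0.051), the smallest adjusted p of the members. Uqcr11 had a lowest value of 74.5, a median of 131.3 and a highest value of 153 CPM at Dose II, against 71.4, 99.9 and 120 CPM in HFD livers, a fold change of 0.40 ± 0.12 (adjusted p = 0.069). Both ranges began at nearly the same level, since library DII133 lay with the low HFD libraries.

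Ndufa13 had a lowest value of 32.4, a median of 70.9 and a highest value of 94.1 CPM at Dose II, against 35.99, 49.8 and 68.8 CPM in HFD livers, a fold change of 0.50 ± 0.16 (adjusted p = 0.076). Ndufs7 had medians of 103.9 CPM at Dose II and 75.7 CPM in HFD livers, a fold change of 0.37 ± 0.13 (adjusted p = 0.098). Sdhb had a lowest value of 328, a median of 367 and a highest value of 382 CPM at Dose II, against 307, 330 and 375 CPM in HFD livers, a fold change of 0.15 ± 0.05 (adjusted p = 0.091). Sdhb changed least of the 5 in size and varied least within groups.

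**Figure D5:**
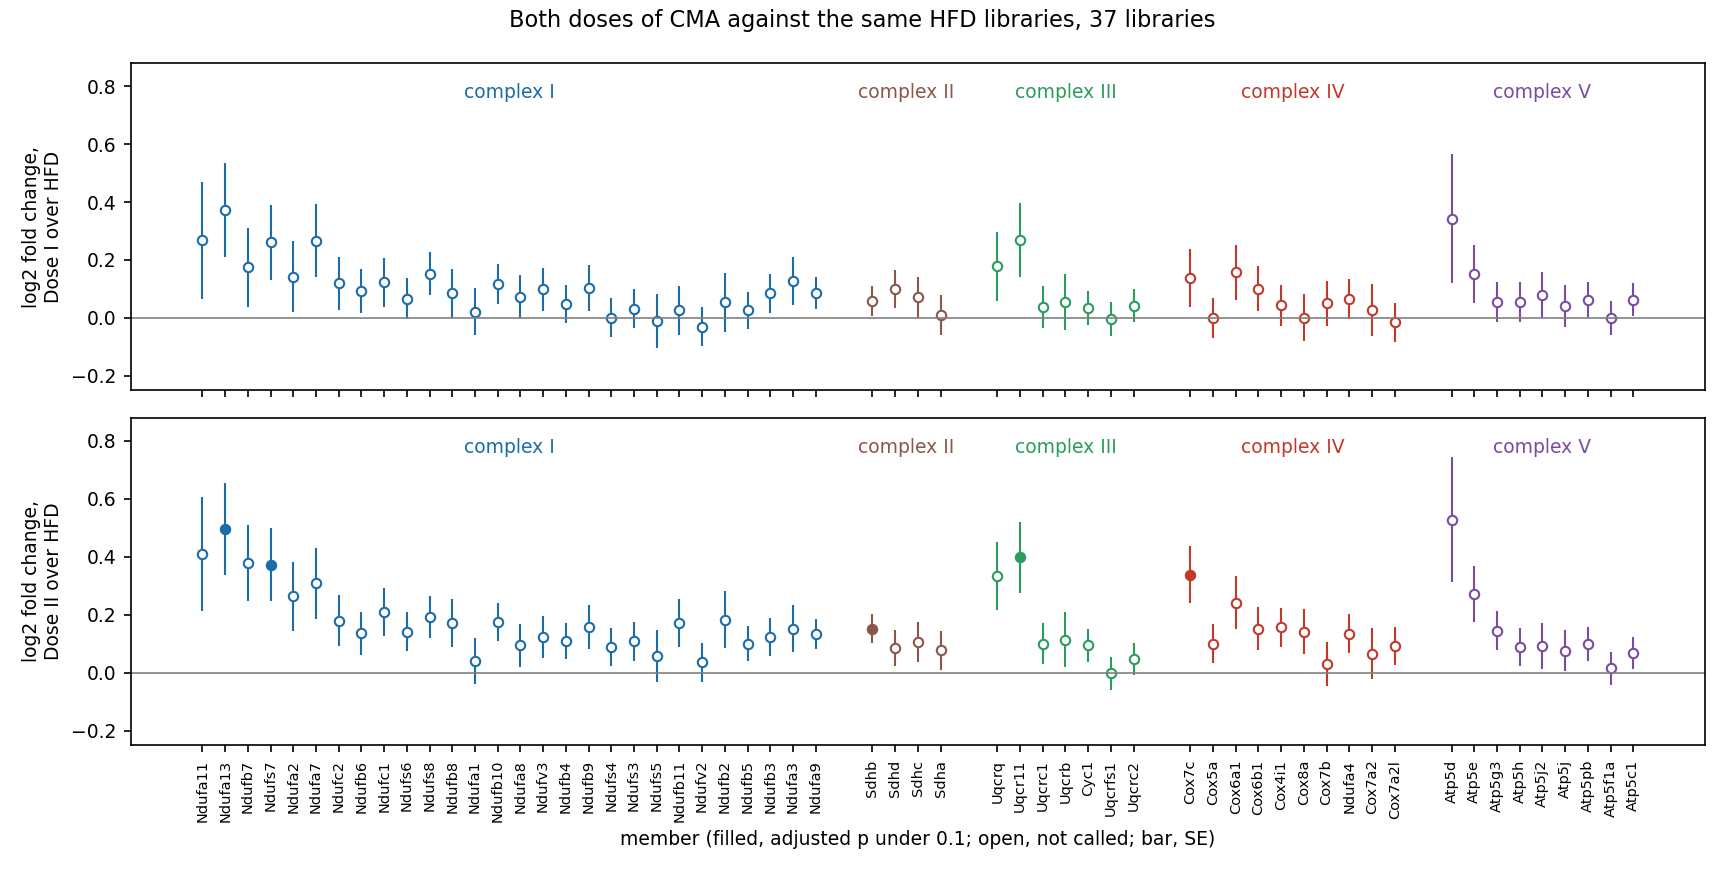
Log2 fold change of Dose I over HFD (upper panel) and of Dose II over HFD (lower panel) for 58 of the 59 tested members, in the order of the HFD comparison, over 37 libraries. Bars are SE and filled points are the members called, none at Dose I and 5 at Dose II; both panels share the HFD libraries, so the likeness of their profiles is not independent.

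Cox7c was called at Dose II whichever HFD or Dose II library was left out, while the calls of the other 4 turned on single libraries. Leaving out each HFD or Dose II library in turn gave 1 to 15 calls, with 15 without H110, the HFD library in which the members were highest, and 13 without DII133, the Dose II library in which they were lowest. Only 1 member was called without H111, H114, H115, DII129, DII134, DII135, DII136 or DII137, and 2 were called without H116, H117, H118, DII131 or DII138. On the same log2 scale the median fold change of the members stayed between 0.10 and 0.16 in these fits. The Dose II and HFD ranges overlapped for each of the 5 genes, and 0.0989% of all genes had every Dose II library above every HFD library. With the length trend removed, the median was 0.07. Of the 12 macrophage markers, 7 fell at Dose II (2 over 38 libraries), with a median of -0.45 and summed levels of 224 to 413 CPM at Dose II, against 315 to 523 CPM in HFD livers. At Dose I none was called, although all 12 were below 0 with a median of -0.46, 9 had an unadjusted p under 0.05, and summed levels were 238 to 458 CPM. All 7 endothelial markers were also below 0, at Dose II (median -0.31, 2 called, 1 over 38 libraries) and at Dose I (median -0.17, 0 called). Of 8 hepatocyte markers, 4 were above 0 at Dose II and 1 rose (median 0.03). The part of these markers in the members' values was not tested.

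Dose II and Dose I were also compared with each other. No member was called by edgeR, DESeq2 or limma-trend, none had an unadjusted p under 0.05 in edgeR, and no gene of the whole table was called either. The median log2 fold change was 0.06, and Cox7c (0.20 ± 0.10, p = 0.053 by edgeR) and Sdhb (0.09 ± 0.05, p = 0.079) had the smallest p. None of the mitochondrial-DNA subunits, assembly factors or regulators was called in either dose against HFD over 37 libraries, although with the length trend removed 1 mitochondrial-DNA subunit fell at Dose II. Of the coenzyme Q genes 1 rose at Dose II, Coq8a (0.47 ± 0.10, adjusted p = 0.0062), which was named after its value was seen.

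Within groups the members rose and fell together from library to library. Over the 37 libraries, with group means taken out, 47 of the 59 had a Pearson's r above 0.5 with the median of the other members (lowest -0.06, median 0.63, highest 0.89), while 2.73% of all other genes had an r above 0.5 with the members' median. Within a library all members share its depth and normalisation, so the values are a description. H110 was the highest HFD library in 38 members and H111 the lowest in 26. DI124 was the highest Dose I library in 31 members, C107 the highest of the 8 controls in 33, and C103 the lowest in 33. At Dose II the lowest library was DII133 in 30 members, and DII131 was the highest in 14. Several of these libraries were also extremes of the length trend. Its rho was the lowest of the group in H110 (-0.224), DI124 (-0.286) and C107 (0.099). It was the highest in C103 (0.334) and DII133 (0.080), but not in H111 (0.106), nor was DII131 (-0.193) the lowest. The other genes were not matched to the members in length, and the part of this trend was not tested.

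Spread within groups differed among the members, from a within-group SD of 0.087 on the log2 scale for Sdhb to 0.54 for Atp5d, with a median of 0.15 (0.28 over all tested genes). The 8 with the widest spread were Atp5d, Ndufa11, Ndufa13, Ndufb7, Ndufs7, Ndufa7, Uqcr11 and Ndufa2, from complexes I, III and V. Pairwise r among them was 0.53 to 0.95 (median 0.81), and all 8 were lowest in the same library of 3 groups, C101, DI125 and DII133, and 6 of the 8 in H116. C101 was the lowest control in 14 of the 59 members, so that these 8 are most of that count, whereas C103 was lowest in 33 others. These 8 hold the 4 largest fold changes of complex I and the largest of complex V in HFD against control, and 3 of the 5 members called at Dose II. Since the 8 were picked by their spread, these counts carry no test. Spread was not matched for count level. Mean counts per library were low in Ndufa2 (217), Ndufa11 (250), Ndufb7 (259), Ndufa7 (314) and Ndufa13 (332). Ndufb2, outside the 8, also had few (261), while Atp5d had 445 and Ndufs7 501.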

How the data were processed

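Liver RNA was measured by RNA-seq in 38 libraries of 4 groups, taken from the labels. Per the study's methods, the authors quantified reads with kallisto (version not given in the sources used here) on MesAur1.0 (Ensembl release 101). They deposited expected counts (estimated counts per gene symbol, not normalized) and TPM for the same 14631 symbols. The deposited TPM rows reach 75.1 to 78.8% of the total a full TPM table would have, so genes without a symbol are left out of the tables. Reads of near-identical copies, such as pseudogenes of these subunits, may be shared in kallisto's estimates.

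Expected counts were rounded to whole numbers, filtered with filterByExpr, scaled with TMM factors and fitted in edgeR 4.0.16 under R 4.3.3 (a mean for each group, quasi-likelihood test), with Benjamini-Hochberg adjustment over all tested genes and a threshold of 0.1. CPM were computed from the same counts. Each SE is the absolute log2 fold change over the root of its F value. Principal components used log2 CPM with a prior count of 2. Fits left out control C105. The main fit and the length adjustment were repeated with it, as was the main fit without each other control in turn. The alternatives listed below and the spread within groups were not. The length adjustment was an offset from a lowess trend (span 0.3) of each library's counts on relative length. The files hold no transcript lengths.

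Alternatives were RLE normalization, DESeq2 1.42.0, limma 3.58.1 (limma-trend) on log2(TPM + 1) and log2(TPM + 0.1) with a minimum mean of 1 TPM or none, no filter on counts, at least 10 counts in every library, the compared groups alone, a threshold of 0.05, and fits that omit 1 library each. The edgeR steps were tested on simulated data. Members named by rule are those with the 10 smallest adjusted p that rose and all that fell in HFD against control. Up to 6 called (or the 2 smallest p) in the other comparisons were added. So were the most abundant and the most and least changed of each complex, isoform pairs, and Sdhb, which the study names. Up to 4 genes of each other list were named as well. Further members were named outside these rules, after their values were seen. These were Atp5f1a, Atp5j2, Atp5pb, Cox6b2, Cox7b, Cox8c, Cyc1, Ndufa2, Ndufa3, Ndufa7, Ndufa9, Ndufb2, Ndufb11, Ndufs4, Ndufs8, Sdhd, Uqcrb, Uqcrc1 and Uqcrfs1. A member of complex I stays in every count and is not reported by name or drawn here. The members and gene lists were chosen with earlier results of these data known. Labels do not name animals, so p-values measure the spread between these libraries.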

Additional observations from a re-analysis of the deposited data

Results flagged for a closer look

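Values of each group were checked for 1 library far from the rest. Chance would mark about 1 group in 20, and 31 were marked, of which 27 are C105 as the highest control. C105 was far above the other 8 controls in the share of counts held by the members (1.37%, others 0.7896 to 0.985%), in their summed TPM (25644, others 15460 to 18600) and in their median log2 deviation from the mean of the other controls (1.11, others -0.19 to 0.16). In complex I it stood apart for Ndufc2 (127.3 CPM), Ndufb6 (86.4 CPM), Ndufs6 (180 CPM), Ndufb7 (92.7 CPM), Ndufb10 (213 CPM), Ndufa13 (107.1 CPM), Ndufs7 (169 CPM), Ndufb9 (448 CPM) and Ndufa11 (74.4 CPM). In complexes II and III it stood apart for Sdhb (565 CPM), Uqcrq (408 CPM) and Uqcr11 (241 CPM). In complex IV it did so for Cox5a (156 CPM), Cox7c (172 CPM), Cox6b1 (357 CPM), Ndufa4 (553 CPM), Cox4i1 (740 CPM), Cox6a1 (305 CPM), Cox7a2 (320 CPM) and Cox8a (252 CPM). In ATP synthase it did so for Atp5e (353 CPM), Atp5h (503 CPM), Atp5d (166 CPM) and Atp5c1 (486 CPM).

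The other 4 were single libraries of treated or HFD groups. DII133 had the lowest median log2 deviation of the members at Dose II (0.21, others 0.36 to 0.52). H110 was far above the other HFD libraries in Cox5a (141 CPM, others 85.2 to 110.7 CPM) and Cox6b1 (257 CPM, others 167 to 212 CPM). H113 was far above them in Uqcrq (298 CPM, others 169 to 230 CPM).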

How the results depend on the processing

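No paired analysis was possible because the label numbers run on across the groups and no number is shared. For HFD against control, the 49 calls (48 that rose) and the median of 0.30 became 3 (3) and 0.11 over all 38 libraries, 31 (29) and 0.13 with the length trend removed, and 7 (6) and 0.0621 with both. Each library left out gave 43 to 51 calls (43 to 50 that rose) and a median of 0.26 to 0.33. With C105 kept, leaving out another control gave 1 to 3 calls. For Dose II against HFD, the 5 calls, all of which rose, became 8 by DESeq2 and 3 by RLE normalization, with no filter on counts and with the compared groups alone. They became 0 over all 38 libraries, with the length trend removed over 37 or 38 libraries, by limma-trend (log2(TPM + 1), log2(TPM + 0.1) and no TPM filter) and at a threshold of 0.05. C105 is in neither of these groups, and keeping it left the fold change of Cox7c at 0.34 with a larger SE. Leaving out each library gave 1 to 15 calls, and a median of 0.10 to 0.16. Dose I against HFD and Dose II against Dose I had 0 calls under each of these settings, and their medians with a library left out were 0.04 to 0.10 and 0.04 to 0.09.

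In HFD against control, the sign turned for some members, with and without a call. Uqcrc2 was 0.000573 by DESeq2 and -0.0248 to 0.0349 with a library left out. Cox7a2l was -0.19 with the length trend removed, -0.13 with it removed over 38 libraries, and by limma-trend -0.0412 on log2(TPM + 0.1) and -0.0411 on log2(TPM + 1) with or without a TPM filter. Atp5c1 was -0.0139 over 38 libraries, -0.00563 with the length trend removed and -0.0398 with both. Ndufa4 (-0.0107), Cox7a2 (-0.0141) and Cox8a (-0.000629), all called over 37 libraries, turned with both. Outside the members followed through every setting, Ndufa3 was -0.05 over 38 libraries and -0.04 with the length trend removed, Ndufb2 was -0.05 and Ndufb11 -0.02 over 38 libraries, and Cyc1 was -0.01 with the length trend removed. The cause was not tested. The other members followed kept their sign in these fits, and Sdha lost its call without H110, H113, H115, H117, H118, C101, C104, C107, C108 or C109 (adjusted p up to 0.26) and by DESeq2, RLE normalization, no filter, the compared groups alone, 38 libraries and the length adjustment (adjusted p 0.1001 to 0.29).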
